A study of Mus musculus with 33 samples.

Results

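The lungs of 6 mice killed 1 day after instillation of carbon black into the trachea were compared with the lungs of 6 mice killed 1 day after instillation of the vehicle. These 12 arrays, 1 per mouse, were chosen from the 33 of the study by the exposure and the day in their labels, and all 611 mouse miRNAs on the array were considered. Every animal was a non-pregnant female of the inbred strain C57BL/6, and the labels used here give no age. The exposed mice received 0.162 mg of Printex 90, an industrial carbon black of nanosized particles, in the vehicle that the control mice received alone. That vehicle, shared by both groups, was 0.9% NaCl in MilliQ water with 10% v/v acellular BAL, the fluid of a lung lavage freed of cells. RNA enriched for small RNA was taken from lung tissue, labelled with Cy3 and hybridised to one-colour Agilent arrays. In such bulk samples fewer cells of a type and less RNA per cell cannot be told apart. The question was which lung miRNAs differed between the groups at the earliest of the days studied.

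A miRNA is a short RNA, cut from a hairpin precursor, that guides Argonaute proteins to messenger RNAs and lowers their translation and stability. Targets are recognised mainly through the seed, bases 2 to 8 of the miRNA, so miRNAs with the same seed can share targets. Either arm of the hairpin can be kept, and in the older names used by this array an asterisk marks the arm taken to be the minor one. Inhaled or instilled carbon black is known to draw neutrophils into the airspaces of the lung. miR-223 is a miRNA of neutrophils and other myeloid cells, miR-142 is made across blood-derived cells, and miR-21, miR-146 and miR-155 are known to be induced by inflammatory signalling.

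The mature sequences below are those of the miRNAs on which the comparison turns, with the seed in capitals. They come from RefSeq on the mouse build GRCm38.p6, where 137 of the 171 mouse miRNAs tested had a match. The first set holds the miRNAs of myeloid and other blood-derived cells and those known from inflammation, shown because miR-223 had the smallest p of the comparison. miR-146a and miR-146b share 1 seed, and the mature miR-223 lies at chrX:96242884-96242905 on the plus strand.
miR-223: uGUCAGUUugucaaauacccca
miR-142-3p: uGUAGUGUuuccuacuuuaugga
miR-142-5p: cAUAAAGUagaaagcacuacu
miR-21: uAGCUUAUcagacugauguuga
miR-155: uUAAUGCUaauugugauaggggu
miR-146a: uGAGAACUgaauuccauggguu
miR-146b: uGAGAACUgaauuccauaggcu

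The second set is shown because its members share a seed or a hairpin and yet differed in their values. miR-221 and miR-222 have the same seed and lie together on chromosome X, miR-222 at chrX:19146901-19146923 on the minus strand. miR-139-5p and miR-139-3p are the arms of 1 hairpin and have different seeds.
miR-221: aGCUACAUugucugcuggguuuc
miR-222: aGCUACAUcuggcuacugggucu
miR-139-5p: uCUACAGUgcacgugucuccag
miR-139-3p: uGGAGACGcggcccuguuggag

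The third set holds miRNAs that share a seed and had differences of 1 sign, and single miRNAs that were lower in every slide pair. The let-7 members differ from each other outside the seed by few bases, so their probes can share signal.
let-7a: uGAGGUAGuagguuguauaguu
let-7e: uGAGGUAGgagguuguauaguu
miR-29b: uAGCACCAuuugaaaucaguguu
miR-29c: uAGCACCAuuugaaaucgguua
miR-141: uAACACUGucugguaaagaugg
miR-200a: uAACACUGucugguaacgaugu
miR-455: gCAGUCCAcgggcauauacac
miR-342-3p: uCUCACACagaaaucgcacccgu

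Array brightness, taken as the 75th percentile of 156 probes above background on all 33 arrays, ran from 187 to 985 on the control arrays (median 365) and from 545 to 791 on the exposed arrays (median 666). On the log2 scale the exposed mean was 9.34 ± 0.21 (SD, n = 6) and the control mean 8.68 ± 0.83, a 1.58-fold difference (two-sided exact permutation test, p = 0.0779, and p = 0.125 over the 6 slide pairs). The 12 arrays lay on 6 slides, each with 1 control and 1 exposed array of day 1. Every control array of day 1 had the same place on its slide and every exposed array had another, and the effects of place and of carbon black cannot be told apart. On the leading component of 94 miRNAs slide 1 was separate from the other slides in both groups. The highest correlation between any pair of arrays was 0.995.

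More mouse miRNAs were above background on the exposed arrays. The count per array ran from 99 to 163 in controls (median 129) and from 129 to 175 in exposed mice (median 162.5), with overlap between the groups. The means differed by 24 miRNAs (two-sided exact permutation test, p = 0.0823), and the exposed array had the higher count in 5 of 6 slide pairs. Brightness moved with this count, and its part in the count was not tested. Over 1 common limit for all 12 arrays, the order turned, with means of 103.5 miRNAs in controls and 100.5 in exposed mice (exact permutation test, p = 0.130). Across the 12 arrays, 96 of the 611 mouse miRNAs were above background on all, 94 on some and 421 on none. Of these, 79 were above background on more exposed than control arrays and 5 on more control than exposed arrays. A gap of at least 4 arrays was seen for 5 miRNAs, all with more exposed arrays: miR-222, miR-155, miR-139-5p, miR-17* and miR-126-5p.

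Marker miRNAs of lung cell types were present with exceptions. miR-126-3p of endothelium, the epithelial miR-200a, miR-200b, miR-200c, miR-141 and miR-429, and miR-143 of smooth muscle were above background on all 12 arrays, whereas miR-145, also of smooth muscle, was above it on none. Of the other epithelial markers, miR-203 and miR-205 were above background on no array, miR-375 on 2 control and 5 exposed arrays and miR-31 on 3 and 5. The endothelial miR-126-5p was above it on 1 control and 5 exposed arrays. Of the 5 brain markers 4 were above background on no array, and miR-128 was above it on 1 control and 1 exposed array. miR-1 of heart and skeletal muscle was above background on 4 control and 6 exposed arrays.

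No miRNA passed an adjusted p of 0.05 in the comparison of exposed with control lungs at day 1 (limma over all 33 arrays, Benjamini-Hochberg over 172 miRNAs, 0 called, 0%). The 172 were 171 mouse miRNAs and 1 of a herpesvirus that were above background on 4 or more arrays in any group of the study. The smallest adjusted p was 0.0994, for miR-223. At an unadjusted p under 0.05, 9 miRNAs had a higher mean in exposed lungs (5.23%) and 7 a lower one (4.07%), the viral one among the latter. The difference was below 0 for 112 of the 172 (65.1%), and its median over the 172 was -0.10 on the log2 scale. That median moved with the scaling of the arrays: it was -0.36 after normexp background correction, 0.12 with the total gene signal and 0.56 without scaling. Differences of 1 sign within a list are therefore given beside this median. Leaving out the scaling, or taking the percentile over all probes, adds 1 amount to the difference of nearly every miRNA and so leaves its distance from this median as it was.

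Fits that took the slide into account called few miRNAs. With slide as a random block (correlation 0.356), miR-223 and miR-222 passed, each with an adjusted p of 0.0229 (2 of 172, 1.16%). With slide as a fixed block over all 33 arrays none passed (0%), and of those with an unadjusted p under 0.05, 14 were higher and 23 lower. In the 12 arrays of day 1 alone, fitted as 6 slide pairs, 4 passed (2.33%): miR-223, miR-222, miR-139-3p and miR-455, with adjusted p of 0.0359, 0.0359, 0.0359 and 0.0483. In that fit 30 miRNAs had an unadjusted p under 0.05 (17.4%). All 6 pairs pointed up for 4 miRNAs (2.33%), namely miR-223, miR-222, miR-139-5p and miR-141, and down for 7 (4.07%). The values of the exposed and control arrays did not overlap for 1 miRNA, miR-222, in which the exposed values were higher and no control value was above background (0.581%), and for none in the other direction (0%). On the day 1 arrays miR-222 met the rule of 4 arrays above background only through the exposed group. Its calls, pairs and lack of overlap therefore set exposed readings against control readings that were not above background.

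**Figure D1:**
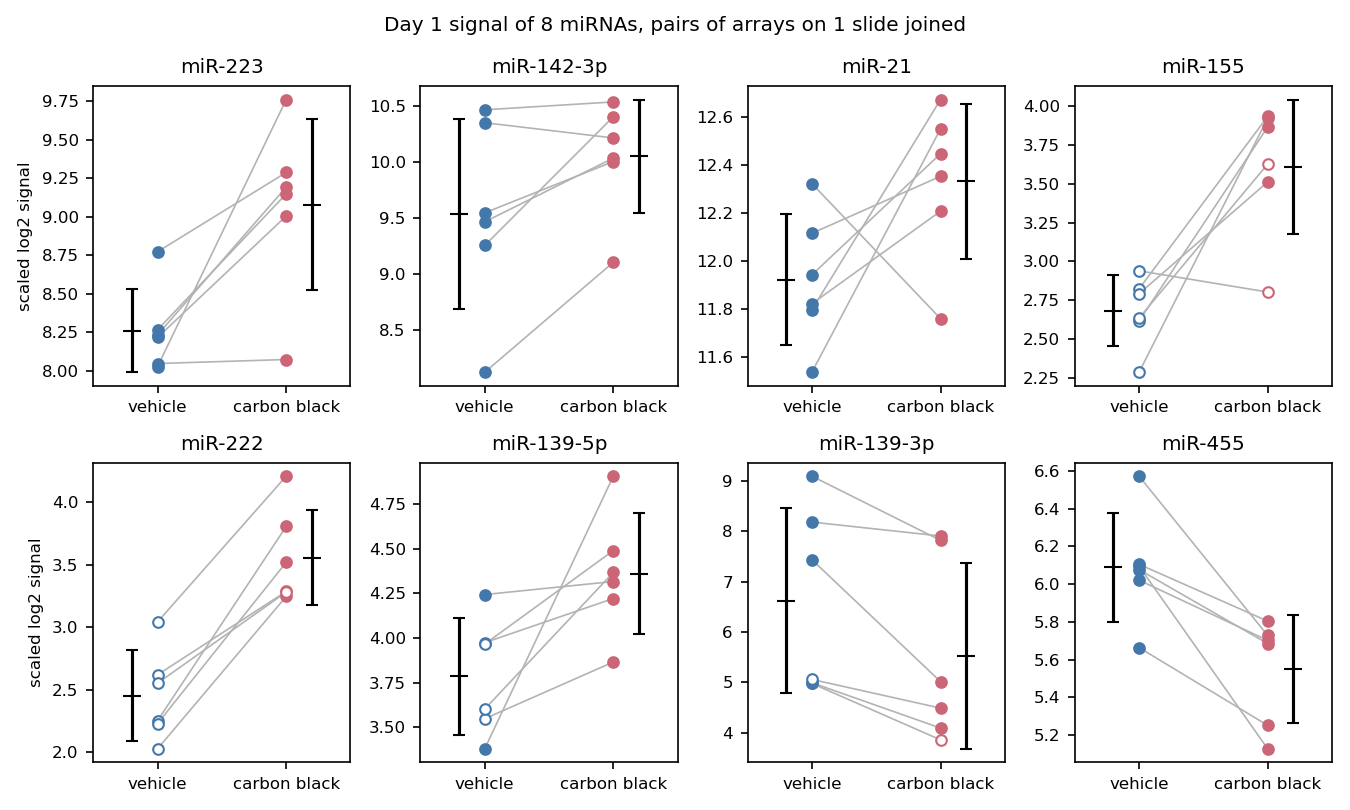
Scaled log2 signal (y axis) of 8 miRNAs in vehicle and carbon black lungs at day 1, with 1 point per mouse, grey lines joining the arrays of 1 slide, open points for arrays on which the miRNA was not above background, and black bars for the mean ± SD of 6 mice. miR-223, miR-222 and miR-139-5p were higher and miR-139-3p and miR-455 lower in all 6 slide pairs; under normexp background correction the differences of miR-222, miR-155 and miR-139-5p turned negative, and without scaling that of miR-455 turned positive.

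The myeloid markers had higher means in exposed lungs, in 3 of 3 miRNAs tested, though none passed the adjusted test over all arrays. In control lungs the scaled log2 signal of miR-223, the processed signal divided by the factor of its array, was lowest at 8.03, had a median of 8.23 and was highest at 8.77. In exposed lungs these values were 8.07, 9.17 and 9.76. On 5 of 6 exposed arrays miR-223 was above every control array, and the exposed array of slide 1, at 8.07, lay among the controls. The means were 9.08 ± 0.56 and 8.26 ± 0.27 (SD, n = 6), a log2 difference of 0.82 ± 0.21 (SE), or 1.76-fold (limma, unadjusted p = 5.8e-04, adjusted p = 0.0994).

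The pairs of miR-223 differed by 0.026 on slide 1 and by 0.52 to 1.73 on the other slides. Without slide 1 the difference was 0.98 (limma, adjusted p = 0.00302), and with array brightness as a covariate it was 1.00 (adjusted p = 0.0104, in a range of 0.00302 to 0.196 over 19 alternatives). The adjusted p passed in 10 of the 19 alternatives. Of 33 fits that each left out 1 array, it passed in 3 and was up to 0.263 in the rest. The 3 were those without the exposed array of slide 1 (0.00156), the control array of slide 4 (0.037) and a control array of day 3 (0.0498). The difference kept its sign under each scaling, at 0.50 in the authors' deposited series table and 0.64 after normexp correction. A second probe for miR-223, dimmer on these arrays, gave 0.46, with 5 of 6 pairs higher.

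miR-142-3p, from a hairpin made across blood-derived cells, ran from 8.12 to 10.46 in controls (median 9.50) and from 9.10 to 10.53 in exposed lungs (median 10.12). The groups overlapped over most of their range. Its difference was 0.51 ± 0.31 (limma, adjusted p = 0.487), higher in 5 of 6 pairs. It was 0.23 without the control array of slide 1 and 0.70 without the exposed array of that slide. Its partner arm miR-142-5p ran from 4.81 to 6.16 (median 5.62) and from 5.53 to 6.51 (median 6.04), a difference of 0.43 ± 0.21 (adjusted p = 0.485), also higher in 5 of 6 pairs and 0.27 without the control array of slide 1. miR-142-5p was lower in exposed lungs after normexp correction, at -0.11, which was above that setting's median of -0.36. The median difference over the 3 myeloid miRNAs was 0.51, the value of miR-142-3p, beside -0.10 over all 172. The list lay above the median of all miRNAs by 0.61, and by 0.86 after normexp correction, 0.41 with the total gene signal, 0.52 after quantile normalization and 0.52 in the series table.

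Of 11 miRNAs listed as induced in inflammation, 4 were tested and 7 were above background on none of the 12 arrays, among them miR-21*, miR-132, miR-212, miR-135b and miR-147. miR-21 was lowest at 11.54, had a median of 11.88 and was highest at 12.32 in controls, and had 11.76, 12.40 and 12.67 in exposed lungs. Exposed values were mostly in the upper part of the control range or above it. The log2 difference was 0.41 ± 0.22 (limma, adjusted p = 0.487), higher in 5 of 6 pairs, with slide 1 the exception at -0.56. A second, dimmer probe of miR-21 gave a difference of 0.87, higher in all 6 pairs. miR-21 passed the adjusted test after quantile normalization, at 0.55 (adjusted p = 0.0493, in a range up to 0.493 over 19 alternatives), and its sign was the same under each scaling.

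miR-155, which acts in activated lymphocytes and macrophages, was not well above background on any control array and was above it on 4 of 6 exposed arrays. Its signal in controls ran from 2.28 to 2.94 (median 2.71) and in exposed lungs from 2.80 to 3.94 (median 3.75). The exposed array of slide 1, at 2.80, was the lowest of its group and lay within the controls. The measured means were 2.68 ± 0.23 and 3.61 ± 0.43 (limma, unadjusted p = 0.0037, adjusted p = 0.212). No fold is given, because the limit of detection, at a mean of 4.04 over the control arrays, was above the exposed mean. After normexp correction the order turned, with a fitted difference of -0.38 beside a median of -0.36 over all miRNAs.

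Of the relatives miR-146a and miR-146b, neither passed the adjusted test. miR-146b ran from 5.72 to 6.11 in controls (median 5.95) and from 5.50 to 6.72 in exposed lungs (median 6.32), a difference of 0.33 ± 0.32 (limma, adjusted p = 0.632) that turned to -0.14 after normexp correction. miR-146a, with the same seed, ran from 7.92 to 8.53 (median 8.26) and from 7.83 to 8.50 (median 8.21), a difference of -0.060 ± 0.18 (95% interval -0.42 to 0.30). The sign of miR-146a depended on the scaling. The median over the 4 inflammation miRNAs was 0.37, or 0.16 with miR-155 set to no difference because it had no fold. Whether the relatives differed from each other was not tested.

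miR-222, which with miR-221 restrains the cell cycle inhibitor p27, was the miRNA whose measured values did not overlap, though its control values were not above background. In controls it was lowest at 2.03, had a median of 2.40 and was highest at 3.04, and in exposed lungs it had 3.25, 3.40 and 4.21. It was not well above background on any control array and was above it on 4 exposed arrays, so it has no fold. The limit of detection, at a mean of 4.04 over the control arrays, was above its exposed mean. The measured means were 2.45 ± 0.36 and 3.56 ± 0.38 (limma, unadjusted p = 0.00137, adjusted p = 0.118). After normexp correction the fitted difference was -0.36, close to the median over all miRNAs, and with a floor of 10 on the signal it was 0.26. The adjusted p ranged from 0.0117 to 0.487 over 18 alternatives and was 0.0168 without a control array of day 3.

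miR-221 shares the seed and the locus of miR-222 and was bright on all 12 arrays. It ran from 6.03 to 7.10 in controls (median 6.23) and from 6.12 to 6.74 in exposed lungs (median 6.26). The difference was -0.045 ± 0.19 (95% interval -0.44 to 0.35; limma, adjusted p = 0.902), and its sign depended on the scaling.

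miR-139, known to restrain growth, had arms of opposite sign. miR-139-5p ran from 3.38 to 4.24 in controls (median 3.78), above background on 2 arrays, and from 3.87 to 4.91 in exposed lungs (median 4.34), above it on 6. Its difference was 0.57 ± 0.21 (limma, unadjusted p = 0.0116, adjusted p = 0.457), and all 6 pairs were higher, by 0.072 to 1.52. After normexp correction the difference was -0.33, which was 0.037 above the median of all miRNAs there.

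miR-139-3p was far more variable, from 4.98 to 9.10 in controls (median 6.25) and from 3.86 to 7.91 in exposed lungs (median 4.75). Its level followed the slide: the arrays of slides 1 and 2 were at 7.82 or higher, those of slides 4, 5 and 6 were between 3.86 and 5.06, and slide 8 had 7.44 in the control and 5.01 in the exposed lung. The exposed array was the lower in all 6 pairs, with differences from -0.28 on slide 2 to -2.42 on slide 8. The difference of -1.09 ± 1.05 did not pass over all arrays (limma, adjusted p = 0.632) and passed in the 6 pairs alone (adjusted p = 0.0359, up to 0.999 under other settings), and its sign was the same under each scaling. Of 11 hairpins with both arms tested, 5 had arms of opposite sign, and differences between arms were not tested.

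miR-455, known from cartilage and brown fat, was lower in each exposed lung than in the control of its slide. It ran from 5.66 to 6.57 in controls (median 6.09) and from 5.13 to 5.80 in exposed lungs (median 5.69), with overlap set by the lowest control. The difference was -0.54 ± 0.30, or 1.45-fold lower (limma, adjusted p = 0.487, and 0.0483 in the 6 pairs alone, up to 0.999 under other settings). Without scaling, where 169 of 172 miRNAs were higher, it was 0.12. miR-342-3p, a miRNA of lymphocytes, ran from 5.80 to 6.19 (median 6.01) and from 5.58 to 5.86 (median 5.71), a difference of -0.28 ± 0.13 (limma, unadjusted p = 0.0403, adjusted p = 0.485). It was lower in all 6 pairs, with differences of -0.52 to -0.031, and was 0.38 without scaling. The lymphocyte list as a whole was mixed: of 4 members tested, miR-181a (0.092) and miR-155 had the higher mean in exposed lungs and 2 the lower, with a median of -0.046, or -0.092 with miR-155 set to no difference, beside -0.10 over all miRNAs.

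**Figure D2:**
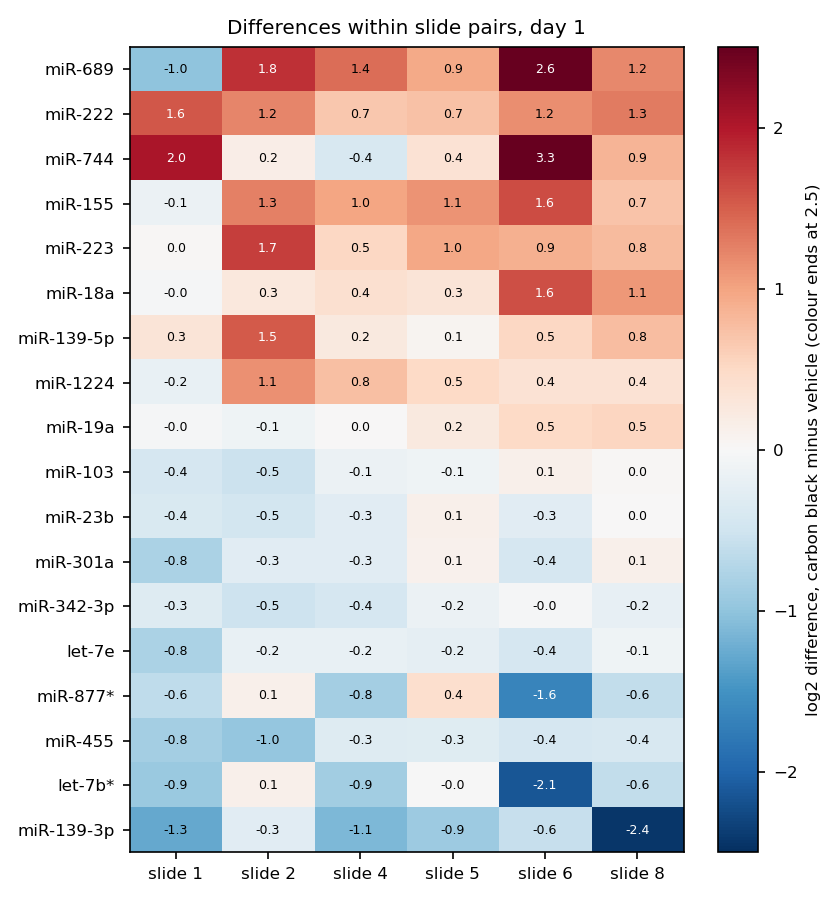
Log2 difference of exposed minus control on each of the 6 slides (columns) for the 18 mouse miRNAs (rows) with an unadjusted p under 0.05, with groups that did not overlap, or with 6 pairs of 1 sign and a mean difference above 0.3. Among rows with a higher exposed mean, slide 1 had the lowest difference for miR-689 (-0.997), miR-1224 (-0.18), miR-155 (-0.14), miR-18a (-0.037) and miR-223 (0.026). Rows below miR-19a would be positive without scaling apart from let-7b* and miR-139-3p.

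Other miRNAs with an unadjusted p under 0.05 were mostly dim or had small differences, and none passed the adjusted test. miR-18a ran from 1.92 to 3.76 in controls and from 2.90 to 3.73 in exposed lungs, above background on 1 and 4 arrays, and its difference was 0.60 ± 0.25 (limma, adjusted p = 0.457). Its means, 2.83 and 3.44, were both under the mean detection limit of the control arrays, 4.04. miR-744 was not well above background on any control array and was above it on 2 exposed arrays, with means of 2.06 ± 1.39 and 3.11 ± 0.24. miR-689, an entry of doubtful standing as a miRNA, was above background on 2 control and 5 exposed arrays, with a difference of 1.17 ± 0.51 (adjusted p = 0.485). Its control mean, 2.87, was also under that detection limit. All of these miRNAs but miR-689 lay under the median of all miRNAs after normexp correction.

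miR-1224, a mirtron also in the list of doubtful entries, ran from 5.66 to 6.68 in controls (median 6.34) and from 6.41 to 7.18 in exposed lungs (median 6.77), above background on all 12 arrays. Its difference of 0.49 ± 0.22 (limma, adjusted p = 0.485) kept its sign under each scaling. The pair of slide 1 was at -0.18 and the other pairs at 0.36 to 1.13. miR-19a, of the miR-17 cluster, differed by 0.19 ± 0.090 and turned to -0.34 after normexp correction. Among the lower ones, let-7b* differed by -0.74 ± 0.34, miR-877* by -0.53 ± 0.21, miR-301a by -0.26 ± 0.11, miR-23b by -0.21 ± 0.098 and miR-103 by -0.17 ± 0.084. These 5 had adjusted p from 0.457 to 0.485, and a second, dimmer probe of miR-103 gave 0.23. A second probe of miR-877* gave -0.49. Without the control array of slide 6, miR-877* was at -0.33 and let-7b* at -0.41.

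**Figure D3:**
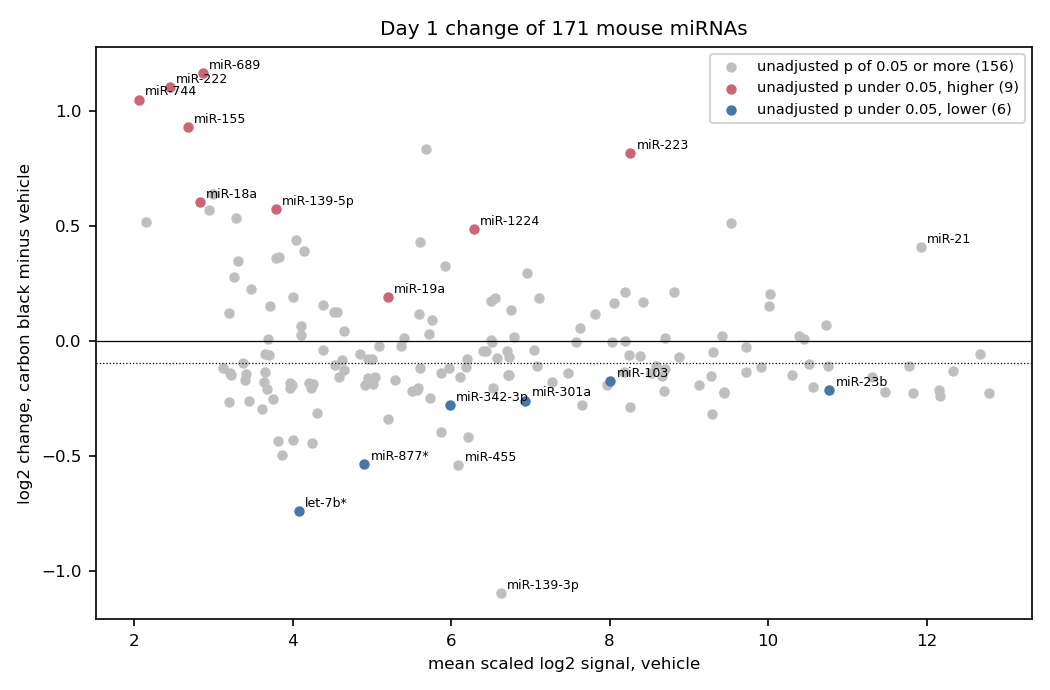
Log2 difference of exposed minus control at day 1 (y axis) against the mean scaled log2 signal of the control lungs (x axis) for 171 mouse miRNAs, coloured where the unadjusted limma p was under 0.05, with a dotted line at the median. Several of the 9 coloured points above 0 lie at the dim end, where normexp correction turned the sign for miR-222, miR-155, miR-744, miR-18a and miR-139-5p; miR-223 is the brightest of the 9.

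The let-7 family holds back growth genes such as Ras in mature tissue. By the brightest probe of each, 9 of 9 members had a difference below 0, with a median of -0.20 beside -0.10 over all 172. Second probes, dimmer on these arrays, gave 0.048 for let-7f and 0.010 for let-7g and values below 0 for the other members. After quantile normalization let-7b was at 0.068. let-7e ran from 8.98 to 9.94 in controls (median 9.20) and from 8.76 to 9.15 in exposed lungs (median 8.97), a difference of -0.32 ± 0.18 (limma, adjusted p = 0.487), lower in all 6 pairs. let-7a, at -0.21 ± 0.12, was also lower in all 6 pairs, and let-7b and let-7c, at -0.22 ± 0.12 and -0.22 ± 0.11, in 5. The minor arm let-7d* differed by -0.39 ± 0.21. Against the median of all miRNAs the family was lower by 0.10 with the main scaling and higher by 0.21 after normexp correction. Without scaling all 9 were above 0, but so was the median of all miRNAs, and the family again lay 0.10 below it. Without the control array of slide 1 the differences of let-7e and let-7a were -0.19 and -0.11. The signal that members share through their probes was not measured, and they are not independent.

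Members of the miR-29 family, which restrains collagen genes, were higher in 3 of 3 cases, with a median of 0.21. miR-29b ran from 9.81 to 10.15 in controls (median 10.07) and from 10.02 to 10.64 in exposed lungs (median 10.20), a difference of 0.21 ± 0.12 (limma, adjusted p = 0.487). miR-29c ran from 8.50 to 9.09 and from 8.76 to 9.30, with 0.21 ± 0.12. Both kept their sign under each scaling. In the miR-15/16 family, brakes on the cell cycle that share the seed AGCAGCA, 5 of 6 members were lower, with a median of -0.21. miR-322 differed by -0.28 ± 0.17, miR-195 by -0.22 ± 0.15 and miR-497 by -0.22 ± 0.14, with adjusted p from 0.487 to 0.516. Below the median of all miRNAs by 0.11 in the main scaling, the family lay 0.15 above it after normexp correction. Without scaling these 3 were above 0, and as far below the median as before. Without the control array of slide 1 they were -0.13, -0.090 and -0.096.

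The miR-17 cluster and its relatives, known for promoting growth, had 7 higher and 3 lower of 10 tested, with a median of 0.075, or 0.016 with miR-17* set to no difference. On chromosome 14, where 6 of them lie at chr14:115043721-115044496 on the plus strand, 5 were higher. Among these 5, miR-19b differed by 5.3e-04. The lower one, miR-92a, differed by -0.0035, and a second, dimmer probe of it gave 0.32. miR-20a ran from 6.39 to 7.17 and from 6.77 to 7.00, a difference of 0.14 ± 0.094 (limma, adjusted p = 0.516). miR-17* was not well above background on any control array and was above it on 5 exposed arrays, with means of 3.48 ± 0.56 and 3.70 ± 0.30. After normexp correction all 10 were lower, by less than the median of all miRNAs for 8 of them.

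Epithelial markers had 5 higher and 3 lower of 8 tested, with a median of 0.12. Of these, miR-203 was above background on no array, and without it, in a count chosen after its values were seen, 4 were higher and 3 lower, with a median of 0.068. miR-141 and miR-200a, which share a seed, had 0.30 ± 0.15 and 0.17 ± 0.11 (limma, adjusted p = 0.487 and 0.512). Their relatives miR-200b, miR-200c and miR-429, which share another seed, were lower, at -0.15, -0.065 and -0.067. miR-141 was higher in all 6 pairs, by 0.015 to 0.57, and was -0.015 after normexp correction. miR-375, of neuroendocrine and alveolar cells, was above background on 2 control and 5 exposed arrays, with 0.53 ± 0.32, and turned to -0.44 after normexp correction. The ciliated cell markers had 2 higher and 1 lower of 3 tested, and the endothelial markers 1 of each. All 4 fibroblast markers tested were lower, with differences of -0.14 to -0.12, close to the median of -0.10 over all miRNAs.

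Markers of red cells and of muscle show what else than lung tissue the samples could hold. Of 3 erythroid markers, miR-144 differed by 0.17 ± 0.23 and miR-451, which lies beside it on chromosome 11, by -0.22 ± 0.21. The 3 muscle markers tested were higher, with a median of 0.64 and wide spread. miR-1 ran from 4.07 to 9.51 in controls (median 4.80) and from 4.47 to 9.39 in exposed lungs (median 6.45), a difference of 0.84 ± 0.76 (limma, adjusted p = 0.632). On slide 5 both arrays were high, at 9.51 and 9.39, and on slide 8 both were low, at 4.07 and 4.47. miR-133a, another muscle miRNA, had the same pattern, with 6.59 and 6.71 on slide 5 and 1.53 and 1.89 on slide 8. The difference of miR-1 was 0.26 without the exposed and 1.60 without the control array of slide 5, and that of miR-133a was 0.027 and 1.36. After normexp correction both were lower, at -0.053 and -0.47. None of the markers of brain and none of the 44 miRNAs of the Dlk1-Dio3 cluster was tested.

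**Figure D4:**
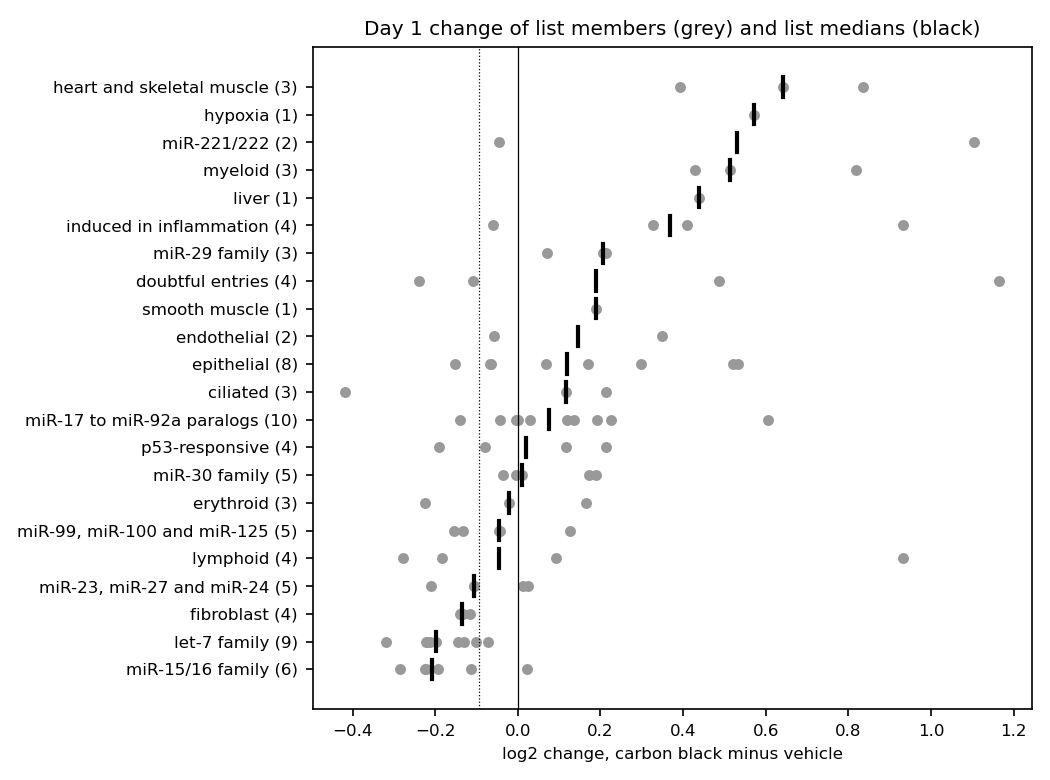
Log2 difference of exposed minus control at day 1 (x axis) for the tested members of each list (grey points, number in brackets) with the list median (black bar), a solid line at 0 and a dotted line at the median of the mouse miRNAs. The 3 myeloid miRNAs lie at 0.43 to 0.82 and the 9 let-7 members at -0.32 to -0.073; against the median of all miRNAs 8 of the 22 lists change side after normexp correction (let-7, miR-15/16, muscle, lymphoid, fibroblast, miR-23/27/24, liver and hypoxia), and points of miRNAs below background in all controls, such as miR-155 and miR-222, have no fold.

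The difference at day 1 was set against that at day 3 and day 28, each with its own control mice. No miRNA passed the adjusted test of a change between day 1 and day 3 (0%) or between day 1 and day 28 (0%), and 4 (2.33%) and 13 (7.56%) had an unadjusted p under 0.05. miR-223 differed by 0.82 at day 1, 0.20 at day 3 and 0.12 at day 28. miR-21 differed by 0.41, 0.27 and 0.85, and miR-146b by 0.33, 0.27 and 1.14.

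miR-155 and miR-222 have no fold at day 1 to set against the other days, since they were above background on no control array of day 1. Both were still among the miRNAs counted in the contrasts between days. Against day 3 miR-155 had an unadjusted p of 0.0168, and against day 28 miR-222 had 0.0108 (limma, adjusted p = 0.99 and 0.489). miR-877* had the smallest p of the day 1 minus day 28 contrast, with -0.53 at day 1 and 0.46 at day 28 (contrast -0.998 ± 0.31; limma, unadjusted p = 0.00319, adjusted p = 0.489). miR-702, a miRNA dim on these arrays, had -0.43 and 0.86, and let-7b* -0.74 and 0.60. With 1 array left out, the day 1 difference ran from -0.68 to -0.33 for miR-877*, from -0.81 to -0.11 for miR-702 and from -0.99 to -0.41 for let-7b*. The smallest difference came each time without the control array of slide 6, the dimmest array of day 1. miR-455 was lower at day 1 and higher at day 3, by 0.50 (contrast -1.04 ± 0.44, adjusted p = 0.99), and miR-328 had -0.34 at day 1 and 0.44 at day 3. miR-1 was higher at day 1 and lower at days 3 and 28, at -1.39 and -1.55. miR-689 was higher on each day, by 1.17, 1.40 and 1.39. Across 171 mouse miRNAs the differences at day 1 had a Pearson r of 0.045 with those at day 3 and of 0.030 with those at day 28, a description over miRNAs that share arrays and scaling.

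Across the 137 miRNAs with a mature sequence, the difference at day 1 had a Pearson r of -0.20 with the GC content of the sequence and of 0.11 with its length. Its correlation with the control signal was -0.20 over 171 miRNAs. These values describe miRNAs measured on the same 12 arrays.

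**Figure D5:**
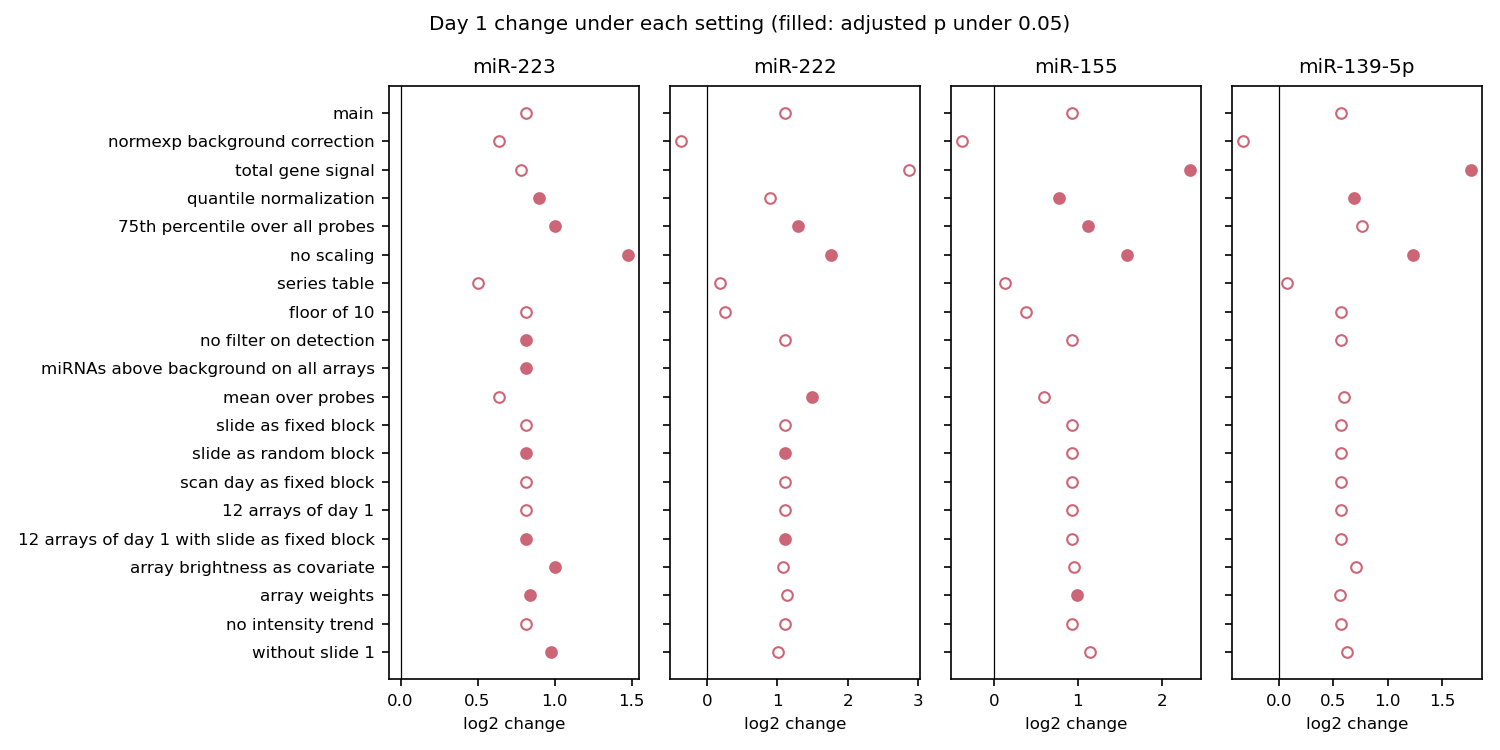
Fitted log2 difference of exposed minus control at day 1 (x axis) for miR-223, miR-222, miR-155 and miR-139-5p under each setting (rows), filled where the adjusted limma p was under 0.05, with miR-222 and miR-155 above background on no control array; the empty places are miRNAs not tested under that setting. miR-223 stays between 0.50 and 1.48, while normexp correction gives -0.36, -0.38 and -0.33 for the other 3, and their differences in the series table are 0.18, 0.12 and 0.073.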

How the data were processed

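The deposited scanner files hold spot intensity on a linear scale, extracted and background-subtracted with Feature Extraction 10.7.3.1, per the file headers. The authors also deposited a table with a log2 value for each miRNA and array; how it was scaled and centred is unknown. Of 13715 spots, 13000 were not controls; outlier spots (2.3%) were left out. Processed signals were averaged per probe, divided by a factor per array (75th percentile over 156 probes above background on all 33 arrays), floored at 1 and converted to log2. The brightest probe stood for a miRNA; of 61 miRNAs with a further bright probe, 14 differed in sign. R 4.3.3 with data.table version 1.17.8 and limma 3.58.1 fitted 6 group means with an intensity trend; tests were two-sided. The number of arrays limits the precision.

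miRNAs named had an unadjusted p under 0.05, a call in a fit with slide, a gap of 4 arrays above background, no overlap or 6 pairs of 1 sign, 1 of the 5 smallest p of a contrast between days, or membership of a list. Members and lists were chosen with earlier results of these data known. Where no array of a group was above background, only a bound was sought. Normexp used the median spot signal in place of the mean, with an offset of 50. The fit was tested on simulated data with independent noise. They held no slide effect, brightness shift or undetected signal, so they cannot show how the fit behaves under these. Alternatives are in the closing section.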

Additional observations from a re-analysis of the deposited data

Results flagged for a closer look

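In groups of 6 arrays, 1 array stood apart from the other 5 in 9 of 94 groups examined. Chance marks about 1 in 20 independent groups, but these share the same 12 arrays, and the count was not tested against that share. On slide 1, the exposed array was the lowest of its group for miR-155 (2.80) and miR-142-3p (9.10) and the highest for miR-195 (9.62), and the control array was the highest for let-7e (9.94). The exposed array of slide 2 was the highest for miR-29b (10.64), and that of slide 4 the lowest for miR-18a (2.90). Among control arrays, slide 4 was the highest for miR-223 (8.77), slide 5 the highest for miR-133a (6.59) and slide 8 the lowest for miR-451 (12.39). miR-155 and miR-18a were not above background on the array that stood apart.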

How the results depend on the processing

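At day 1 the number of miRNAs called was 0 in the main fit. The number was 3 with the total gene signal (miR-155, miR-139-5p, miR-17*), 5 after quantile normalization (miR-155, miR-139-5p, miR-223, miR-21, miR-19a) and 3 with the percentile over all probes. It was 6 without scaling and 7 with no filter on detection, a larger set with 148 differences above 0 and 302 below. Of the 94 miRNAs above background on all arrays, 1 was called (miR-223). The number was 2 with the mean over probes, 2 with slide as a random block and 4 in the 6 slide pairs alone. It was 1 with brightness as a covariate, 2 with array weights and 2 without slide 1. It stayed 0 with normexp correction, the series table, a floor of 10, slide or scan day as a fixed block, the 12 arrays unpaired and no intensity trend. Leaving out each array in turn gave 0 to 2. The 2 came without control replicate 25 of day 3 (miR-223, miR-222). Without exposed replicate 3 or control replicate 13 of day 1 miR-223 was called, and without exposed replicate 12 of day 28 miR-155. The contrast of day 1 with day 3 called 1 with the total gene signal (miR-155). The contrast with day 28 called 0 of 172 in the main fit, 97 after normexp correction and 119 without scaling. Unscaled brightness ran from 187 to 985 on the control arrays of day 1 and from 633 to 1211 on those of day 28. Whether a shift of whole arrays gave these 2 large counts was not tested. With no filter this contrast called 1, miR-135b, which was above background on no array of day 1. It called 0 to 1 when each array was left out (miR-702 without control replicate 5 of day 1). The difference in miRNAs above background per array, 24, was -3 over 1 common limit. A brightness from the median over all probes was not run, because that median has no log2 on most arrays.

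After normexp correction these differences turned negative: miR-155 -0.38, miR-375 -0.44, miR-139-5p -0.33, miR-142-5p -0.11, miR-126-5p -0.42, miR-133a -0.47, miR-744 -0.47, miR-689 -0.32, miR-222 -0.36, miR-18a -0.44, miR-146b -0.14, miR-17* -0.44, miR-20a -0.17, miR-19a -0.34, miR-1 -0.053 and miR-141 -0.015. Without scaling these turned positive: miR-322 0.38, miR-497 0.44, miR-455 0.12, let-7c 0.44, let-7e 0.34, miR-451 0.44, miR-328 0.32, miR-301a 0.40, let-7b 0.44, miR-23b 0.45, miR-702 0.23, let-7d* 0.27, miR-195 0.44, let-7a 0.45, miR-146a 0.60, miR-877* 0.13, miR-221 0.62, miR-342-3p 0.38 and miR-103 0.49. In both settings the median of all miRNAs moved the same way. With the percentile over all probes miR-146a was 0.13, miR-221 0.14 and miR-103 0.012. In the series table let-7d* was 0.063, miR-146a 0.083 and miR-221 0.11. Single cases were miR-221 with the total gene signal (0.11), let-7b after quantile normalization (0.068), miR-744 with a floor of 10 (-0.037), miR-702 with brightness as a covariate (0.25), miR-146a with array weights (0.063), and miR-126-5p (-0.13), miR-103 (0.027) and miR-221 (0.071) with the mean over probes. Leaving out 1 array moved 27 of 45 miRNAs by over 1.5 times or across 0, and changed the sign of miR-126-5p (-0.095 to 0.78), miR-146a (-0.13 to 0.012) and miR-221 (-0.12 to 0.095). Except where a sentence above names a cause, the cause was not tested. Signal over background limits the dim miRNAs: 6 of the 172 were above it on no array of 1 group. Only 96 of the 171 mouse miRNAs tested were above it on all 12 arrays of day 1.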

Other observations

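Arrays of 1 slide had like levels of some miRNAs. miR-139-3p was at 9.10 and 7.82 on the 2 arrays of slide 1 and at 4.99 and 4.09 on those of slide 5, and miR-1 was at 9.51 and 9.39 on slide 5. Whether mice of 1 slide also shared a cage or a day of dissection was not stated in the labels. Liver miR-122 was above background on 3 control and 4 exposed arrays, and miR-210, known from hypoxia, on 3 and 3.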
